A study of Mus musculus with 18 samples.

Results

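The genes of gluconeogenesis, the pathway that makes glucose from non-sugar precursors, were followed in the small intestine and liver of young mice that carried gut microbiota from old or young donors. The set holds 8 genes of the 22180 that the array names, chosen by symbol: G6pc, Slc37a4, Pck1, Pck2, Fbp1, Fbp2, Pcx and Ppargc1a. Each has 1 probe set with 1 annotated gene, so 8 probe sets were read. The recipients were germ-free C57BL/6 mice (written C57BL\6 in the labels), raised without microbes and 5 to 6 weeks old at transfer. They received microbiota either from old donors of about 24 months, also given as 2 years (OMT recipients), or from young donors (YMT recipients). The young donors' age is 4 weeks in one label and 5 to 6 weeks in another. All were kept for 8 weeks after the transfer and were 12 or 13 weeks old when sampled, depending on the label. Every animal in both groups was therefore colonised, and the comparison is between donor ages. There were 5 OMT and 4 YMT arrays of small intestine, and 5 OMT and 4 YMT arrays of liver. The number of donors or cages is not given in the sources used here, so a shared donor or cage cannot be told apart from donor age. The part of the small intestine that was taken is also not given. No feeding state or time of day at sampling entered the comparisons, and the part of either in the results was not tested.

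Gluconeogenesis runs glycolysis backwards except at its irreversible steps, which have enzymes of their own. Pyruvate carboxylase (Pcx) makes oxaloacetate in mitochondria, phosphoenolpyruvate carboxykinase (cytosolic Pck1, mitochondrial Pck2) turns it into phosphoenolpyruvate, and fructose-1,6-bisphosphatase (Fbp1, Fbp2) removes a phosphate further up. Glucose-6-phosphatase (G6pc), fed by the endoplasmic reticulum transporter Slc37a4, frees glucose for release. The liver is the main site in a fasted animal, and the small intestine and kidney also carry the terminal enzymes. The coactivator Ppargc1a raises transcription of hepatic gluconeogenic genes during fasting, glucagon acts through cAMP, and insulin represses G6pc and Pck1.

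Values are log2 array levels, where a difference of 1 is a doubling, and are given as mean ± SD or as OMT minus YMT with its standard error (SE). A gene was called changed at an adjusted p under 0.05 over all genes tested in that comparison, by limma, a linear model that shares information on spread between genes. A probe set entered a test if it lay above its array's median on at least 4 arrays. All 8 genes passed this filter in both tissues, though Fbp2 in liver did so at levels about the arrays' medians. The p-values measure the spread among recipients, and precision is limited by how few arrays each group has.

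The tissue names were checked on marker genes. The 10 hepatocyte markers averaged 12.41 to 12.53 on liver arrays and 4.8 to 5.39 on intestine arrays, and the 10 enterocyte markers averaged 6.26 to 6.63 on liver arrays and 11.43 to 12.26 on intestine arrays. Array medians were 4.12 to 4.22 in liver and 4.39 to 4.51 in intestine. Since both tissues were sampled in bulk, fewer cells of a type and less RNA per cell cannot be told apart.

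The upstream sequences of the 3 members with the smallest p in liver are shown because their transcripts differed with the donor group. Each is the 250 bases before the RefSeq start of the gene, build GRCm38.p6, on the gene's strand. Capitals mark matches on either strand to 4 short motifs. These were the half-site of the cAMP response element (TGACG or its complement CGTCA) and the insulin response element (TGTTTTG). The others were the E-box, searched as the exact letters CACGTG, and the TATA box (TATAAA). No motif matches overlapped one another in these windows.
G6pc, chr11:101367466-101367715, plus strand: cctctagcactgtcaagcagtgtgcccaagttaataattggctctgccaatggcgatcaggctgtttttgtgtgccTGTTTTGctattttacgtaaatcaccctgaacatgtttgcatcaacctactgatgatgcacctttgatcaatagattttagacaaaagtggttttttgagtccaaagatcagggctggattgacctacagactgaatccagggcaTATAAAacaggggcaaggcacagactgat
Pck1, chr2:173152823-173153072, plus strand: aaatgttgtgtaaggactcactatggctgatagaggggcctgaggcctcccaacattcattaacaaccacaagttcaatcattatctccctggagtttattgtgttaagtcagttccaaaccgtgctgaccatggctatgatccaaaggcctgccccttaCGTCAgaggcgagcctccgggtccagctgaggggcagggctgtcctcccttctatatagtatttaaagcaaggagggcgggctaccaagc
Ppargc1a, chr5:51567726-51567975, minus strand: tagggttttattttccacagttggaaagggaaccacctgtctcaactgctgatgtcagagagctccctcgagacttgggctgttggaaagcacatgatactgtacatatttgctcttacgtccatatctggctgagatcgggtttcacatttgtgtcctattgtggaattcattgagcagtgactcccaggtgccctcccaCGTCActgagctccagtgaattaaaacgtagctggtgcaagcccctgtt
The G6pc window held 1 insulin response element, at 174 to 168 bases before the start, and 1 TATA box at 29 to 24 bases. The Pck1 window held 1 cAMP half-site, at 90 to 86 bases, and the Ppargc1a window also held 1, at 49 to 45 bases. Of 32851 such windows in the table, 17.8% held the cAMP half-site, 5.56% the insulin response element, 6.02% the E-box and 12.4% the TATA box. None of these 3 windows held the E-box, which was found before a start of Fbp2 and of Pcx. A match describes the letters and does not show that a factor binds there. The lack of an exact match likewise does not show that no factor binds.

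In YMT recipients, 5 of the 8 genes were at a higher level in liver than in small intestine and 3 at a lower one, with no overlap between the tissues' arrays for any of them. Levels are compared here gene by gene and without a test, because it is not stated whether the tissues were normalized together. The liver minus intestine difference was 5.39 for Fbp1, 4.46 for G6pc, 2.91 for Pcx, 2.03 for Pck1 and 1.59 for Slc37a4. The genes at a lower level in liver were Fbp2 (-5.83), Ppargc1a (-2.22) and Pck2 (-0.85).

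The 2 fructose bisphosphatase genes thus had opposite tissue patterns. Fbp1, known as the liver enzyme, averaged 11.28 ± 0.15 in YMT livers and 5.89 ± 0.50 in YMT intestines. Fbp2, known as the muscle enzyme, averaged 4.28 ± 0.05 in YMT livers, about the arrays' medians, and 10.11 ± 0.12 in YMT intestines. Of 10 skeletal and smooth muscle markers in intestine, Acta1, Ckm, Tnnt3, Myh11 and Acta2 lay above the array's median on all 9 arrays. The skeletal myosins Myh1 and Myh4 did so on none, Actg2 on 7, and Des and Cnn1 on 8 each. In OMT and YMT intestines Actg2 averaged 4.77 and 4.78, Des 4.99 and 4.96, and Cnn1 4.78 and 4.78. The skeletal actin Acta1 was at 8.20 ± 0.58 in OMT and 7.84 ± 0.27 in YMT intestines. The skeletal creatine kinase Ckm was at 4.98 ± 0.18 in OMT and 4.84 ± 0.14 in YMT intestines. The mean of the 10 markers was 4.99 to 5.43 in OMT and 4.99 to 5.18 in YMT intestines, and the part of muscle in the Fbp2 level was not tested. Each gene carries the other's symbol as an older name in RefSeq, so the 2 probe sets were matched by gene identifier.

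In OMT recipients the arrays of the tissues overlapped for G6pc and Pck1. For G6pc the order of the 4 group means was YMT liver (10.79), OMT intestine (8.05), OMT liver (7.54) and YMT intestine (6.33). The OMT livers lay at 6.85 to 8.17 and the OMT intestines at 7.07 to 8.94, while the YMT livers lay above every other array and the YMT intestines below every other array. Pck1 was at 10.55 in OMT livers and 10.37 in OMT intestines. The order for Pck1 was YMT liver (11.32), OMT liver, OMT intestine and YMT intestine (9.29).

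**Figure D1:**
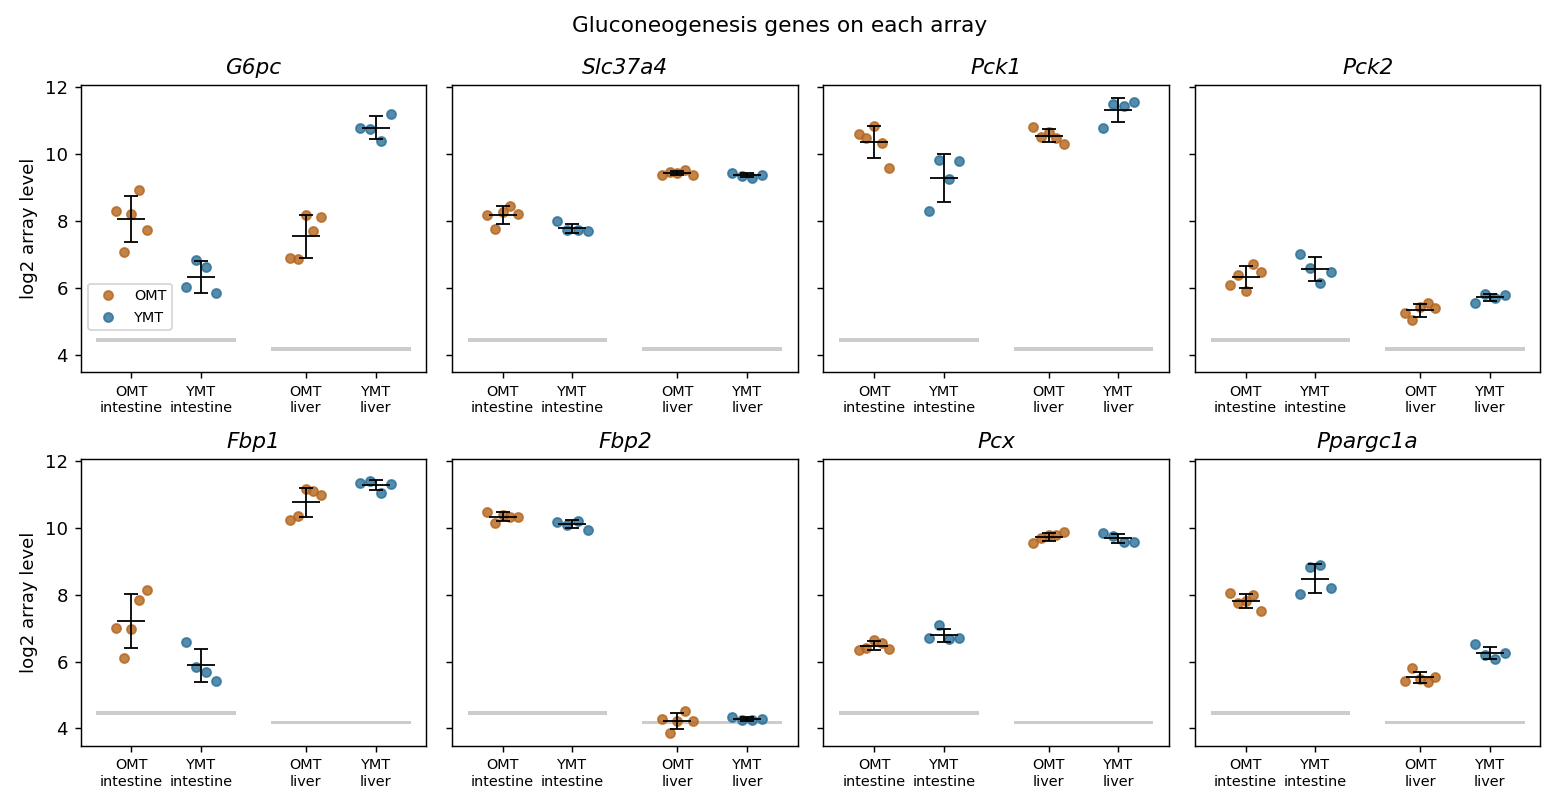
Log2 array level of each gene on each of the 18 arrays (points, OMT brown and YMT blue), with the group mean and SD (black bars) and the range of the arrays' medians (grey bands). G6pc lies between 7.07 and 8.94 in OMT and 5.83 and 6.83 in YMT intestines, and between 6.85 and 8.17 in OMT and 10.39 and 11.21 in YMT livers.

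In the small intestine G6pc was higher in OMT than in YMT recipients, and it was the 1 gene of the 8 to pass the test. Its levels were 8.29, 7.07, 8.21, 8.94 and 7.74 in OMT intestines, against 6.02, 6.83, 6.63 and 5.83 in YMT intestines. The groups did not overlap, and 2.8% of all genes likewise lay wholly above in OMT. The difference was 1.72 ± 0.34 (SE), a 3.3-fold rise with a 95% interval from 1.94 to 5.6 (adjusted p = 0.0259). Over all 13238 genes tested, 4.14% passed in either direction, 1.04% as higher and 3.1% as lower in OMT. The median difference of the 8 genes was 0.31, against -0.02 for all genes. The call for G6pc was lost without OMT replicate 1 (adjusted p = 0.0526) or 3 (0.0588), and without YMT replicate 1 (0.0677), 2 (0.0518) or 4 (0.0736), while its difference stayed between 1.5 and 1.97 with any 1 array left out. The mean level of the small nucleolar RNAs on the array was 7.31 and 6.93 on OMT intestines 1 and 2, 6.1 to 6.53 on the other OMT intestines and 6.11 to 6.49 on the YMT intestines. Without those 2 arrays G6pc was at 1.97 (adjusted p = 0.0352).

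The transporter that feeds the phosphatase, Slc37a4, was at 8.18 ± 0.26 in OMT and 7.78 ± 0.14 in YMT intestines, a difference of 0.39 ± 0.13 that did not pass (adjusted p = 0.112). With 1 array left out the adjusted p of Slc37a4 lay between 0.0398, without OMT replicate 2, and 0.236. Cytosolic Pck1 was at 10.61, 10.49, 10.84, 10.32 and 9.57 in OMT intestines, against 8.30, 9.81, 9.25 and 9.79 in YMT intestines. The groups overlapped at OMT replicate 5, and the difference of 1.08 ± 0.33 did not pass (adjusted p = 0.092). Fbp1 was at 7.0, 6.11, 6.96, 7.83 and 8.13 in OMT intestines, against 6.59, 5.84, 5.70 and 5.42 in YMT intestines. OMT replicate 2 lay within the YMT range, and the difference of 1.32 ± 0.38 did not pass (adjusted p = 0.0791). It did pass without that array (1.59, adjusted p = 0.0472), while leaving out another array gave an adjusted p of up to 0.196. Their 95% intervals were 0.34 to 1.82 for Pck1 and 0.46 to 2.17 for Fbp1.

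The point estimates of Ppargc1a, Pcx and Pck2 were lower in OMT intestines, though none of these genes passed. Ppargc1a was at 8.06, 7.75, 7.80, 7.98 and 7.52 in OMT intestines, against 8.01, 8.82, 8.89 and 8.21 in YMT intestines. The groups overlapped at OMT replicate 1 and YMT replicate 1, and the difference of -0.66 ± 0.19 did not pass (adjusted p = 0.0762). With 1 array left out the adjusted p of Ppargc1a lay between 0.0495, without YMT replicate 1, and 0.186. Pcx was at 6.36 to 6.65 in OMT and 6.68 to 7.08 in YMT intestines. These groups did not overlap, as for 9.65% of all genes and with OMT below for 6.84%, yet the difference of -0.31 ± 0.10 did not pass (adjusted p = 0.118). Pck2 (-0.24 ± 0.20, adjusted p = 0.494) and Fbp2 (0.23 ± 0.09, adjusted p = 0.158) did not pass either.

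Markers of other cells moved with the donor group in intestine. The summary level of 10 goblet cell markers was 9.75 to 10.32 in OMT and 10.46 to 10.75 in YMT intestines, and 3 of the 10 fell. That of 9 T cell and NK cell markers was 6.38 to 6.91 in OMT and 6.95 to 7.45 in YMT intestines, and 2 of the 9 fell. Enterocyte markers overlapped (11.99 to 12.26 in OMT, 11.43 to 12.23 in YMT), and none of 10 passed. Their part in the G6pc result was not tested.

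Position along the intestine was looked at through markers of its ends, because the pathway's enzymes are not evenly spread along it. Of 12 tested markers of the proximal end 1 fell, the iron exporter Slc40a1, and none of 10 distal markers passed. The proximal differences ran from -2.01 for Slc40a1 to 2.17 for Fabp1, which did not pass, with a median of 0.02. Distal differences ran from -1.17 for Slc10a2 to 0.17, with a median of -0.14. The proximal markers averaged 6.76 to 7.10 in OMT and 6.41 to 7.08 in YMT intestines, and the distal ones 9.82 to 10.55 in OMT and 10.25 to 10.89 in YMT intestines. YMT replicate 1 had the lowest proximal (6.41), the highest distal (10.89) and the lowest enterocyte level (11.43), together with the lowest Pck1 (8.30). Without that array the G6pc difference was 1.62, and the part of position in the result was not tested.

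In the liver 4 of the 8 genes fell in OMT recipients and none rose, with G6pc changing most in size. Of all 13380 genes, 19.2% passed in either direction, 8.78% of all as lower and 10.4% as higher. The share of passing genes that were higher was 54.2%, and 43.7% after quantile normalization within the tissue. The median difference was -0.44 for the 8 genes and 0 for all genes. G6pc was at 6.88, 6.85, 8.17, 7.69 and 8.12 in OMT livers, against 10.79, 10.75, 10.39 and 11.21 in YMT livers. The highest OMT liver lay more than 2 log2 units below the lowest YMT liver. The difference was -3.24 ± 0.29, a 9.47-fold fall with a 95% interval from 6.04 to 14.9 (adjusted p = 6.55e-05). It lay between -3.40 and -3.07 with any 1 array left out.

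The coactivator Ppargc1a fell as well. It was at 5.42, 5.81, 5.47, 5.39 and 5.55 in OMT livers, against 6.52, 6.19, 6.07 and 6.26 in YMT livers, with no overlap. Groups without overlap were found for 18.1% of all genes in liver, with OMT below for 8.51% and above for 9.64%. The difference was -0.73 ± 0.11, or 1.66-fold (adjusted p = 0.00127). Cytosolic Pck1, which makes phosphoenolpyruvate, was at 10.81, 10.51, 10.66, 10.48 and 10.31 in OMT livers, against 10.78, 11.49, 11.44 and 11.56 in YMT livers. YMT replicate 1 lay among the OMT livers and the other 3 YMT livers above them all. Pck1 fell by 0.76 ± 0.16 (1.7-fold, adjusted p = 0.00749), and by 0.94 without YMT replicate 1.

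Pck2, the mitochondrial isoenzyme, was at 5.24, 5.04, 5.42, 5.56 and 5.40 in OMT livers, against 5.56, 5.81, 5.69 and 5.77 in YMT livers. The groups met at 5.56, and the fall was -0.38 ± 0.11 (adjusted p = 0.0301). Its call was lost without OMT replicate 1 (adjusted p = 0.0634) or 5 (0.0516), or without YMT replicate 2 (0.0895), 3 (0.0631) or 4 (0.0764). Fbp1 was at 10.25, 10.37, 11.16, 11.11 and 10.97 in OMT livers, against 11.33, 11.40, 11.05 and 11.32 in YMT livers, and its difference of -0.50 ± 0.19 did not pass (adjusted p = 0.0929). The other 3 genes lay close to 0. Slc37a4 differed by 0.07 ± 0.06 (95% interval -0.07 to 0.21), Pcx by 0.05 ± 0.09 (-0.14 to 0.24) and Fbp2 by -0.05 ± 0.11 (-0.30 to 0.20).

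OMT livers 1 and 2 stood apart from the other 3 for several of these genes. G6pc was at 6.88 and 6.85 on them and 7.69 to 8.17 on the others, Fbp1 at 10.25 and 10.37 against 10.97 to 11.16, and Pck2 at 5.24 and 5.04 against 5.40 to 5.56. Without both arrays G6pc was at -2.79 (adjusted p = 4.3e-05), Ppargc1a at -0.79 (0.00187) and Pck1 at -0.83 (0.0158). Pck2 at -0.25 (0.0936) then did not pass, and Fbp1 was at -0.19 (0.24).

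Hepatocyte markers as a whole were at 12.46 to 12.53 in OMT and 12.41 to 12.48 in YMT livers, and 2 of 10 rose. Markers of periportal hepatocytes, the zone where gluconeogenesis is strongest, were at 9.60 to 9.82 in OMT and 9.86 to 9.92 in YMT livers, and 2 of 8 fell, Cyp2f2 and Aldh1b1. Without passing, Hal, Ass1, Sdhd and Pigr were lower in OMT livers. Cps1 (12.43 ± 0.04 in OMT, 12.28 ± 0.04 in YMT) and Arg1 (11.67 ± 0.17 and 11.42 ± 0.09) were higher, also without passing. Pericentral markers were at 8.62 to 8.97 in OMT and 8.93 to 9.12 in YMT livers, and of 10, 4 fell and 1 rose. Endothelial markers were at 6.07 to 6.28 in OMT and 6.42 to 6.66 in YMT livers, and 5 of 10 fell. Stellate cell and fibroblast markers were at 5.73 to 5.86 in OMT and 5.89 to 6.26 in YMT livers, and of 9, 5 fell and 1 rose. Their part in the changes of the 8 genes was not tested.

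**Figure D2:**
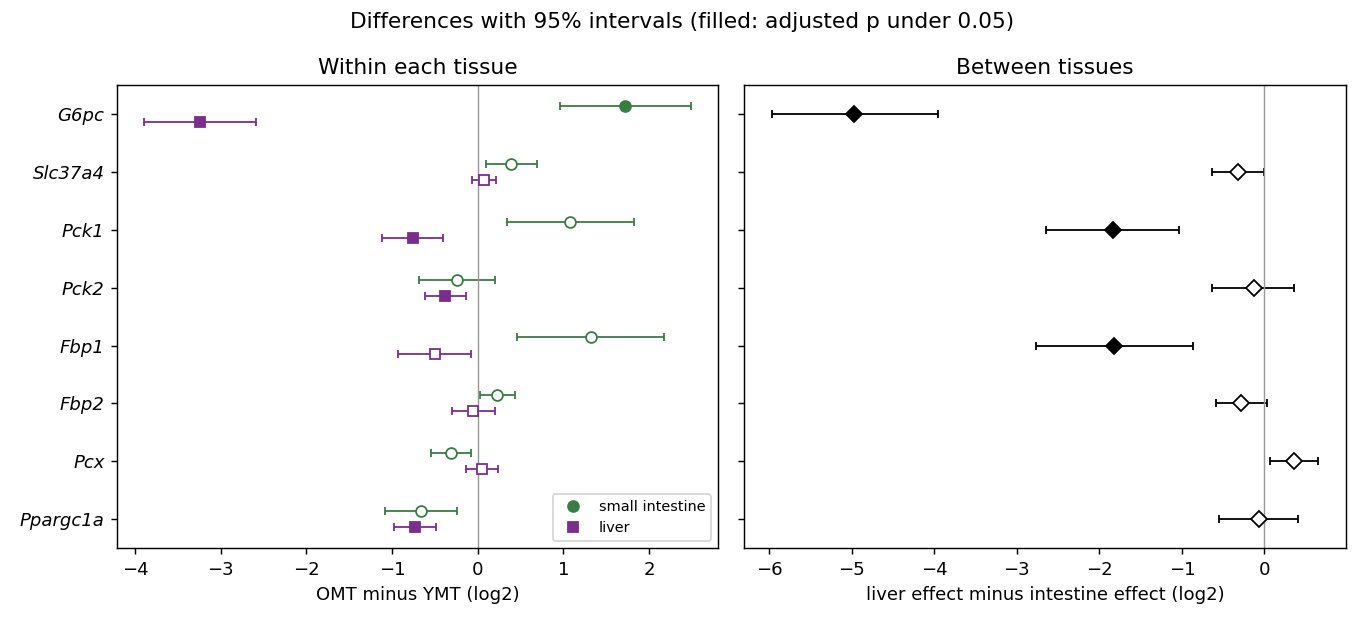
OMT minus YMT difference of each gene in small intestine (circles) and liver (squares) on the left, and the liver effect minus the intestine effect on the right, on the log2 scale with 95% intervals and with filled symbols at an adjusted p under 0.05. G6pc is at 1.72 in intestine and -3.24 in liver, and Ppargc1a at -0.66 and -0.73.

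The effect of the donor group on 3 of the 8 genes was unequal in the tissues. The test compared OMT minus YMT in liver with OMT minus YMT in intestine over all 18 arrays. Of 14747 genes 10.9% passed it, 3.98% with the lower and 6.9% with the higher effect in liver. The share with the higher effect in liver was 63.4% of those passing, and 49.5% after quantile normalization within each tissue. G6pc differed by -4.97 ± 0.48 (adjusted p = 3.08e-06), Pck1 by -1.84 ± 0.39 (0.00493) and Fbp1 by -1.82 ± 0.45 (0.0146), each with a lower effect in liver. All 3 differences passed in each of the 29 other settings tried, where adjusted p was at most 1.4e-05 for G6pc, 0.034 for Pck1 and 0.0379 for Fbp1. Fbp1 passed this test although its change did not pass in either tissue.

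For the other 5 genes no difference between tissues passed. The intervals were -0.55 to 0.41 for Ppargc1a (-0.07 ± 0.23, adjusted p = 0.877) and -0.63 to 0.36 for Pck2 (-0.13 ± 0.23, 0.755). Slc37a4 was at -0.32 ± 0.15 (0.171), Fbp2 at -0.28 ± 0.15 (0.233) and Pcx at 0.36 ± 0.14 (0.103). The point estimates of Ppargc1a were below 0 in both tissues (-0.66 and -0.73).

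**Figure D3:**
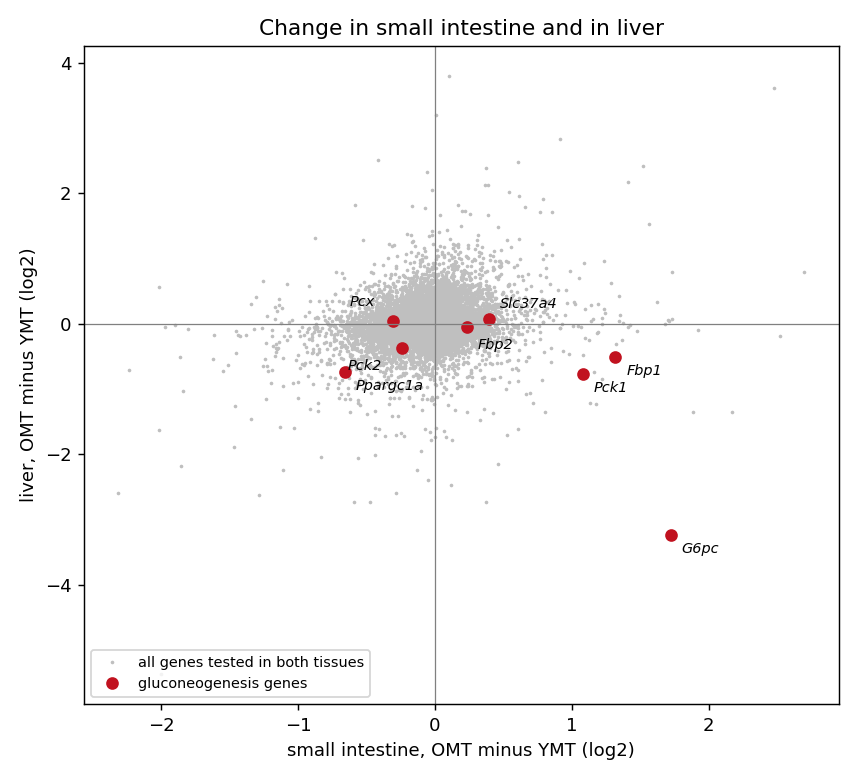
OMT minus YMT difference in small intestine (x axis, log2) and in liver (y axis, log2) for every gene tested in both tissues (grey) and for the 8 gluconeogenesis genes (red). G6pc, at 1.72 and -3.24, lies in the lower right, with Fbp1 (1.32 and -0.50) and Pck1 (1.08 and -0.76) in the same quadrant.

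The pattern of G6pc, a rise in intestine with a fall in liver, was counted over all genes. Few could have it, since 1.04% of the genes tested passed as higher in intestine and 8.78% as lower in liver. Among 11970 genes present in all 3 tests, 8, G6pc included, rose in intestine, fell in liver and passed the test between tissues, and 17 did the reverse. Ranked by the smaller of the 2 changes, G6pc was followed by Angptl4, an inhibitor of lipoprotein lipase (1.89 in intestine, -1.35 in liver), and the tubulin gene Tubb2a (1.22 and -0.84). Next were the glutathione transferase gene Gstm6 (0.56 and -0.69) and Tcim (1.08 and -0.48). The reverse pattern was led by Cyp39a1, a hydroxylase of bile acid synthesis (-0.88 in intestine and 1.32 in liver), Grn (-1.08 and 0.61), Creg1 (-0.92 and 0.59), Slc40a1 (-2.01 and 0.56) and Spg20 (-0.67 and 0.53).

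Among themselves the genes varied together in part, which is described here as Pearson's r over the 9 arrays of a tissue, with no p because the arrays share the donor groups. In liver G6pc followed Pck2 (r = 0.87), Ppargc1a (0.87), Fbp1 (0.81) and Pck1 (0.78). After each group's mean was removed, Fbp1 (0.89) and Pck2 (0.67) still followed G6pc, while Pck1 (-0.17) and Ppargc1a (-0.13) did not. In intestine G6pc followed Slc37a4 (0.85), Fbp2 (0.83), Fbp1 (0.77) and Pck1 (0.68), with 0.65, 0.60, 0.41 and 0.21 after the group means were removed. Slc37a4 and Fbp1 had r = 0.91 there, and 0.82 within groups.

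The genes whose levels were most like those of a called member over the same 9 arrays are named by r alone. For G6pc in liver, of 12462 genes compared, these were Gpr146 (r = 0.989), Hsd17b12 (0.987) and Tkfc (0.985), the last a kinase of fructose breakdown. In intestine, of 12404, they were Flvcr1 (0.968), Tspan13 (0.967) and Gstm7 (0.957). In liver Ppargc1a was closest to Fam3c (0.991), Mcoln1 (0.986) and Usp45 (0.980), and Pck1 to C1qc (0.961), Fam170b (0.941) and Kcnk10 (0.936). The nearest to Pck2 were Cst3 and Sem1 (0.979 each) and Kazn (0.970). Group means were not removed for these r, so a difference shared between the donor groups raises them. Whether these genes vary together within a donor group was not looked at.

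Among the reversible enzymes that gluconeogenesis shares with glycolysis, 1 passed within a tissue and 2 between tissues. Of 9 tested in intestine none passed (median 0.01), with Eno3 at -0.62 ± 0.18 (adjusted p = 0.0747), and of 11 tested in liver 1 rose (median -0.06), namely triosephosphate isomerase (Tpi1, 0.37 ± 0.09, adjusted p = 0.014). The effect differed between tissues for 2 of 11, lactate dehydrogenase A (Ldha, 0.55 ± 0.14, adjusted p = 0.0178) and the enolase Eno3 (0.80 ± 0.21, adjusted p = 0.0212), both with the higher effect in liver. Relatives of the phosphatase and the sugar transporters were listed next. The ubiquitous phosphatase G6pc3 was at -0.26 ± 0.19 in intestine and 0.23 ± 0.10 in liver, neither passing. The glucose transporter Slc2a2, which carries glucose across hepatocyte and enterocyte membranes, fell in liver by 0.67 ± 0.12 (10.44 ± 0.27 in OMT, 11.11 ± 0.08 in YMT, adjusted p = 0.00403). For intestine the difference of Slc2a2 was 0.60 ± 0.33 (adjusted p = 0.307, not passing), and the effect differed between tissues by -1.27 ± 0.37 (adjusted p = 0.034). Of the 5 relatives tested in each tissue, none passed limma's test in intestine, and in liver Slc37a1 rose by 0.39 ± 0.12 (adjusted p = 0.04998) and Slc2a2 fell.

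Enzymes of the opposing glycolytic steps changed singly. Of 10 in intestine 1 fell, hexokinase 2 (Hk2, -1.61 ± 0.28, 6.36 in OMT and 7.97 in YMT, adjusted p = 0.0143). Of 11 in liver 1 fell and 1 rose. Liver pyruvate kinase (Pklr), which consumes phosphoenolpyruvate, fell by 2.23 ± 0.15 (8.24 in OMT, 10.47 in YMT, adjusted p = 8.92e-06). The bifunctional enzyme Pfkfb2 rose by 0.66 ± 0.16.

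Genes that supply substrates moved both ways. Of 17 tested in liver 5 rose and 3 fell (median -0.03). The alanine transaminase gene Gpt rose in liver by 0.72 ± 0.10 (adjusted p = 0.000904) and in intestine by 0.81 ± 0.11 (0.00598), and the pyruvate carrier subunit Mpc1 rose in liver by 0.43 ± 0.10. Gpd2, the mitochondrial glycerol phosphate dehydrogenase, fell in liver by 1.61 ± 0.09 (adjusted p = 5.31e-06), and Pcca, a subunit of propionyl-CoA carboxylase, by 0.35 ± 0.09. Of 18 in intestine 2 rose and 1 fell (median -0.08). Besides Gpt the rise was that of Pdk4, which restrains pyruvate oxidation (2.52 ± 0.33), and the fall that of the aspartate-glutamate carrier Slc25a13 (-0.63 ± 0.13).

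Regulators of gluconeogenic transcription went both ways. In intestine 4 of 28 rose and 3 fell (median 0.05). The rises included the clock repressors Cry2 (0.66 ± 0.08) and Cry1 (0.81 ± 0.15) and the corepressor Nr0b2 (0.58 ± 0.12), and the falls the clock repressor Nr1d1 (-2.01 ± 0.19, adjusted p = 0.00214). In liver 4 of 29 rose and 2 fell (median -0.03). There Cry1 (1.06 ± 0.12), Cry2 (0.53 ± 0.10) and the nuclear receptor Hnf4a (0.55 ± 0.11) rose, and Ppargc1b, a relative of Ppargc1a, fell by 0.52 ± 0.11, as did Nr1d1 (-1.62 ± 0.35). Cry1 and Cry2 are known to restrain cAMP signalling to gluconeogenic genes.

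Of 13 genes listed as targets of ChREBP, the sugar-sensing factor that also acts on G6pc, 12 fell in liver and none rose, with a median of -2.23. They included Pklr, Thrsp (-2.88 ± 0.21), Acacb (-2.74 ± 0.25) and Fasn (-2.73 ± 0.26). In intestine 1 of 11 fell, the elongase Elovl6 (-1.29 ± 0.23), and the median was 0.08. All 13 passed the test between tissues with a lower effect in liver. Mlxipl, the gene of ChREBP itself, did not pass in liver (-0.74 ± 0.26, adjusted p = 0.076). The part of ChREBP in the fall of G6pc was not tested. The list spans genes of fatty acid synthesis (Fasn, Acacb, Elovl6), glycolysis (Pklr) and fructose breakdown (Khk, Tkfc), and it was chosen with earlier results of these data known. Of 11 genes induced in the fasted liver 1 rose and 3 fell there (median -0.15). Cyp4a14 rose by 1.58 ± 0.19, while Lpin1 (-2.59 ± 0.26), Angptl4 (-1.35 ± 0.25) and Ehhadh (-0.81 ± 0.18) fell. In intestine 2 of 7 rose, Pdk4 and Angptl4 (1.89 ± 0.29), and Sesn1 fell by 0.72 ± 0.14.

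**Figure D4:**
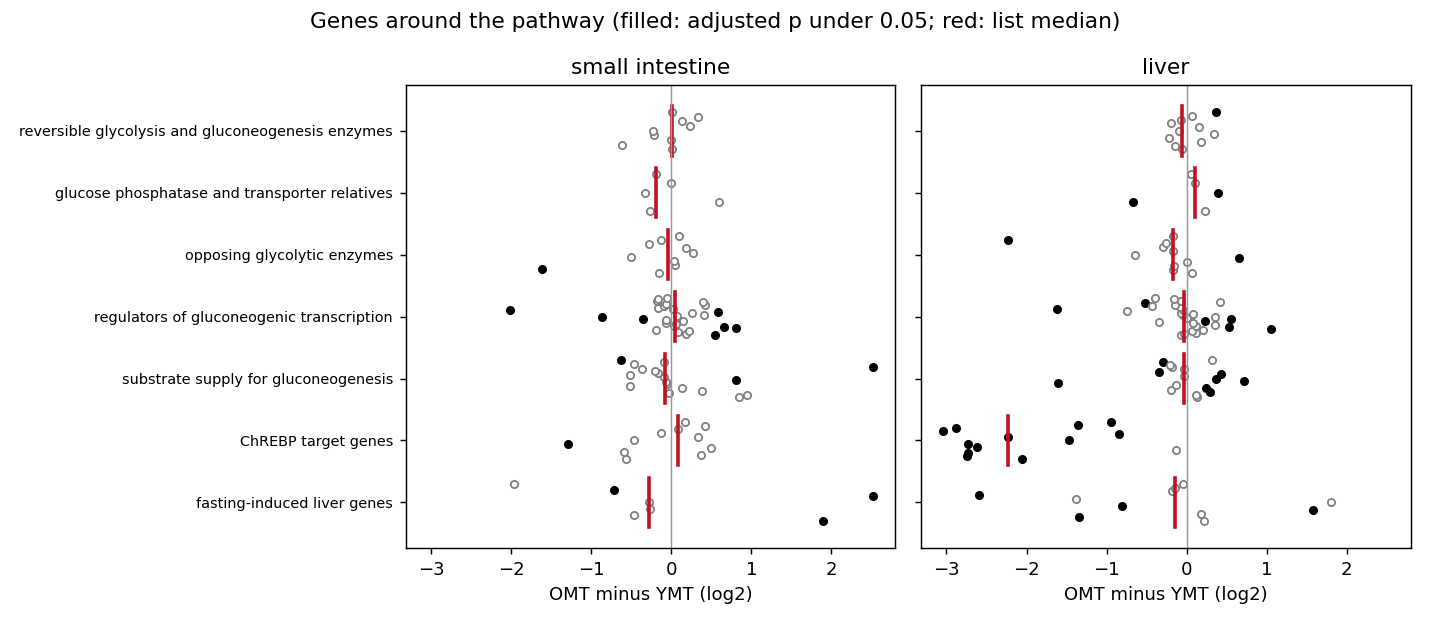
OMT minus YMT difference (x axis, log2) of each tested gene in 7 lists around the pathway, in small intestine (left) and liver (right), with filled points at an adjusted p under 0.05 and the list median in red. The median of the ChREBP targets is -2.23 in liver and 0.08 in intestine, while the other 6 medians lie within 0.3 of 0 in both tissues.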

How the data were processed

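Gene expression was measured with 1 Affymetrix array per sample from 250 ng of total RNA, per the labels' protocols. The authors deposited log2 values. The submitters' processing notes name RMA and Affymetrix Expression Console, with no version. RMA, a quantile normalization with background correction and probe summary, narrows differences of dim probe sets. The log base was taken as 2 from the range of values.

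Of 41345 probe sets, 23521 carry a single symbol (22180 genes), 1814 carry more than 1 and were left out, and the other 16010 are unnamed here. Of the 23521, 23328 were found by gene identifier in RefSeq GRCm38.p6. Groups were taken from sample titles. The probe set of highest mean above the array median on at least 4 arrays stood for a gene. Tests used limma 3.58.1 in R 4.3.3 (lmFit, eBayes), two-sided, with Benjamini-Hochberg adjustment over all genes, within each tissue and, for the difference between tissues, on 18 arrays in 4 groups. Steps were tested on simulated arrays. There a log2 change of 0.5 was recovered at 52.2% in intestine, 50.7% in liver and 34.3% between tissues. A change of 1 was recovered at 97%, 95.5% and 76.1%, and the false share was 2.92%, 6.82% and 2.78%. Small changes could therefore be missed. Promoter sequences are RefSeq's, found for all 8 genes (11 windows). Figures used matplotlib 3.10.9.

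The genes named were the 8 members, up to 4 genes of smallest p per list, the 3 genes most like each called member and 5 per opposite pattern, passing over clone names. Other genes of a list were named in addition after their values were seen. The members, lists and tests were chosen with earlier results of these data known. Alternatives were the level filter, eBayes settings, array weights, scaling, probe set choice, arrays left out, all 18 arrays in the fit, the replicate number as a block and a threshold of 0.10. The labels do not say whether liver and intestine came from the same mice. Deviations from group means of same-numbered OMT and YMT samples correlated at -0.06 to 0.22 in intestine and -0.14 to 0.08 in liver. Those of same-numbered liver and intestine samples correlated at -0.04 to 0.04 in OMT and 0.01 to 0.11 in YMT. Such weak correlations cannot exclude that both tissues came from the same mice, since the numbering may differ between tissues. The test between tissues treats all 18 arrays as separate because the labels state no pairing.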

Additional observations from a re-analysis of the deposited data

Results flagged for a closer look

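The effect on 3 genes was unequal in the tissues by the test of the difference itself, liver effect minus intestine effect: G6pc (-4.97), Pck1 (-1.84) and Fbp1 (-1.82), given with their tests above. In 3 of 32 sets of arrays, a gene in a group each, the gap of 1 array to its nearest neighbour, as a share of the group's range, passed Dixon's 95% critical value, which chance passes in about 1 in 20 groups. Pck1 was at 10.78 on YMT liver replicate 1 and 11.44 to 11.56 on the other YMT livers. Slc37a4 was at 7.99 on YMT intestine replicate 1 and 7.70 to 7.73 on the others. Pcx was at 7.08 on YMT intestine replicate 2 and 6.68 to 6.69 on the others.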

How the results depend on the processing

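In intestine 548 genes passed. The count was 310 with no level filter, 1172 with array weights, 1445 with all 18 arrays in the fit, 1331 at an adjusted p under 0.10 and 230 without both OMT arrays numbered 1 and 2. It was 147 to 636 with 1 array left out, and fell below 310 without YMT replicate 1 (283), 2 (147) or 4 (236) and without OMT replicate 2 (228) or 3 (275). Of the 8 genes, where 1 passed, 4 passed with array weights, 4 at 0.10, 6 with all 18 arrays, 2 without both OMT arrays and 0 with the replicate block, in which G6pc was at 1.80 (adjusted p = 0.0737). Leaving out 1 array gave 0 to 3. In liver 2563 genes passed, and 1459 with the replicate block and 1790 to 2685 with 1 array left out. Of the 8, where 4 passed, 2 passed with the replicate block or with all 18 arrays, as Pck1 (adjusted p = 0.0571 and 0.0557) and Pck2 (0.0773 and 0.122) did not, and 3 to 4 with 1 array left out. Between tissues 1604 genes passed, and 2595 at 0.10 and 1100 to 1884 with 1 array left out, with 3 to 4 of the 8. As the labels do not say that equal numbers mark a pair, the block stands as an alternative only. In liver G6pc and Ppargc1a passed in all 21 alternatives.

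Directions turned only where a difference was near 0. Fbp2 in liver was at 0.05 without both OMT arrays and 0.04 without OMT replicate 2, in a range of -0.12 to 0.04 with 1 array left out. The difference between tissues was 0.14 for Ppargc1a with array weights, 0.09 and 0.02 without YMT intestine replicates 1 and 4 and 0.02 without YMT liver replicate 1 (range -0.21 to 0.09), and 0 for Pck2 without YMT intestine replicate 3 (range -0.29 to 0). The cause was not tested. Dim levels limit Fbp2 and Pck2 in liver, which had no value under a stricter filter at the arrays' 75th percentile.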
